A study of Arabidopsis thaliana with 4 samples.

Results

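The transcripts described here encode 10 enzymes of jasmonate biosynthesis in Arabidopsis thaliana, chosen by their locus identifiers from 33059 listed features: the lipoxygenases LOX2 (AT3G45140), LOX3 (AT1G17420), LOX4 (AT1G72520) and LOX6 (AT1G67560), the allene oxide synthase AOS (AT5G42650), the allene oxide cyclases AOC1 (AT3G25760) and AOC2 (AT3G25770), the oxophytodienoate reductase OPR3 (AT2G06050), the CoA ligase OPCL1 (AT1G20510) and the conjugating enzyme JAR1 (AT2G46370). All 10 were found and all 10 passed the filter on low values, an average of 1 TPM or more across the libraries, as did 20010 features in all. RNA came from rosette leaves of plants aged 28 days. One genotype carried ERF4 behind the 35S promoter, a cauliflower mosaic virus promoter active in most cells (OE) and the other was wild type (WT), with 2 libraries each. Neither the number of transgenic lines nor whether replicates were separate plants is given in the labels, so the p-values reflect the variation among these 4 libraries alone, which may be technical. The comparison asks which of these transcripts differ when ERF4, an ethylene response factor that represses transcription, is overexpressed.

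Jasmonates are oxylipin hormones of wounding, defence and stamen development. In the plastid, lipoxygenases oxygenate linolenic acid, AOS turns the hydroperoxide into an unstable allene oxide, and the cyclases close it to oxophytodienoic acid, OPDA. Peroxisomal OPR3 reduces OPDA, OPCL1 joins the product to CoA for β-oxidation, and JAR1 couples jasmonic acid to isoleucine, the form that the COI1 receptor binds. In leaves many genes of the route are themselves induced by jasmonate, and ERF4 is known as a repressor of jasmonate and ethylene responses.

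Values were in TPM, which correct for length and give every library the same total, so levels of different genes can be compared but the depth of each library is unknown. ERF4 (AT3G15210) had 24.5 and 28.8 TPM in the OE libraries and 9.68 and 10.6 TPM in the WT libraries, in the direction of the labels, without passing the threshold (limma, Benjamini-Hochberg adjusted p = 0.381). Leaf markers were abundant, with 25874 and 44644 summed TPM over 5 genes in OE and 54006 and 19468 in WT, and 4 of 5 flower markers were too low to be tested, with sums of 0.65 and 4.40 TPM in OE and 1.30 and 4.65 TPM in WT. Guard cell markers summed to 72.2 and 66.3 TPM in OE and 73.9 and 90.8 TPM in WT, and phloem markers to 77.2 and 114 TPM in OE and 81.5 and 78.5 TPM in WT. Markers of root hairs and endodermis were detected in every library, at 83.2 and 67.8 summed TPM over 5 genes in OE and 76.1 and 66.9 in WT. The labels name rosette leaves only, and whether root tissue was present was not tested. The libraries of one genotype also differed from each other: 4 dark and starvation genes summed to 1586 and 2833 TPM in OE replicates 1 and 2, and to 84.1 and 1800 TPM in WT replicates 1 and 2. Seed markers were lower in OE, with 0.58 and 6.86 summed TPM over 5 genes, against 56.5 and 55.7 in WT. Both OE libraries lay below both WT libraries for all 5, beside 14.2% of all tested features. Of the 5 markers, 1 fell past the threshold, the cruciferin gene CRU3 (limma, Benjamini-Hochberg adjusted p = 0.0182), beside 0.03% of tested features called lower. All 5 had an unadjusted limma p under 0.05, beside 2.61% of tested features with such a p and lower in OE. CRU3, OLEO1 and EM1 had less than 1 TPM in both OE libraries, so they could pass the filter only with a higher WT mean. The part of these differences in the results that follow was not tested, and in such whole-tissue RNA fewer cells of a type and less RNA per cell cannot be told apart.

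None of the 10 enzyme transcripts passed the threshold between OE and WT, set at 0.05 for the limma p on log2(TPM + 1) after Benjamini-Hochberg adjustment across the whole table, beside a background of 0.09% of tested features called. At an unadjusted p under 0.05 there were 2, LOX3 and OPCL1, both lower in OE, as were 2.61% of all tested features. The log2 fold change was negative for 9 of the 10, with a median of -0.56, beside a negative value for 51.7% of tested features and a median of -0.02. The 10 were chosen with earlier results of these data known, so no set test was run and the shares are descriptions only. Both OE libraries lay below both WT libraries for 6 of the 10 (LOX3, LOX4, AOS, AOC2, OPR3 and OPCL1) and above them for 0, beside 14.2% and 13.7% of all tested features. Which members kept that order depended on the scaling: LOX3, OPR3 and OPCL1 did so in each of the 4 scalings compared, AOS, AOC2 and LOX4 lost it in at least 1 of them, and LOX2 and LOX6 gained it in at least 1. The median was -0.35 without OE replicate 2 and ran between that value and -0.68 over the fits that left out 1 library. LOX3 and LOX4 had less than 1 TPM in both OE libraries, so they could pass the filter only with a higher WT mean. Their place in the counts above was thus partly fixed by the filter.

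**Figure D1:**
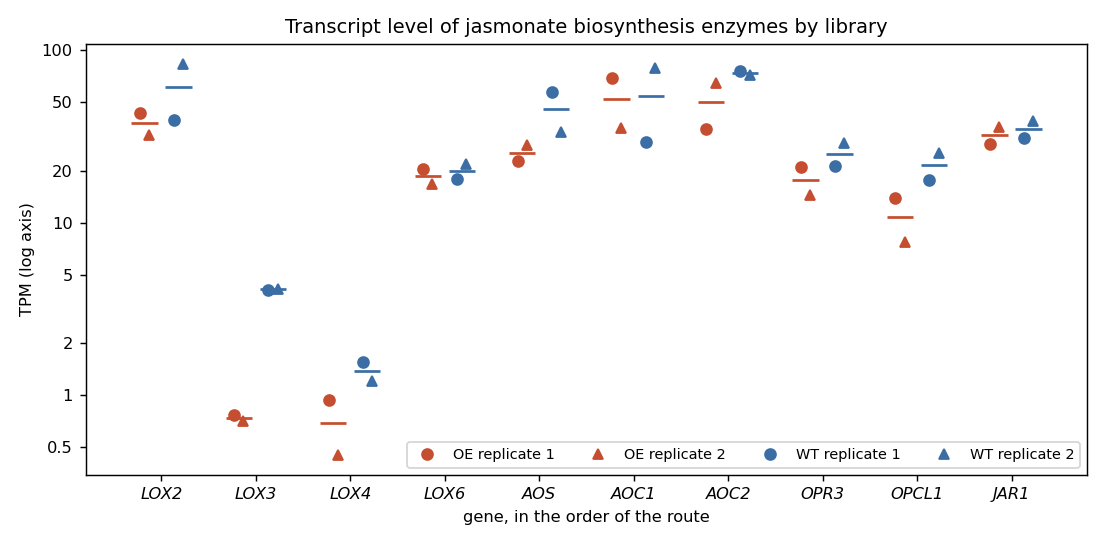
TPM of each enzyme transcript on a log axis, with OE libraries to the left of WT libraries. Circles are replicate 1, triangles replicate 2 and lines the mean of a genotype (n = 2). LOX3 and LOX4 lie apart from the rest, at 4.16 TPM or less, and LOX3 shows the widest gap between genotypes.

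By level, the 10 transcripts formed an abundant set of 8 and a scarce pair. Over the 4 libraries the mean was 62.2 TPM for AOC2, 53.1 for AOC1, 49.8 for LOX2, 35.7 for AOS, 33.6 for JAR1, 21.5 for OPR3, 19.3 for LOX6 and 16.2 for OPCL1, and the ranges of neighbours in this order overlapped. LOX3 followed at 2.43 TPM and LOX4 at 1.04 TPM. The lowest OPCL1 library, at 7.80 TPM, still lay above the highest LOX3 library, at 4.16 TPM. Together the 10 summed to 256 and 237 TPM in OE replicates 1 and 2, against 297 and 390 TPM in WT replicates 1 and 2. Both OE sums were the lower ones, with a mean of 247 ± 13.5 TPM in OE and 343 ± 65.6 TPM in WT (SD, n = 2 each; exact two-sided permutation test, p = 0.333, the smallest that 2 against 2 libraries can give).

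Of the lipoxygenases that open the route, LOX3 had the widest gap between genotypes and LOX6 the narrowest. LOX3, which acts with LOX4 in male fertility and in leaf defence, had 0.77 and 0.71 TPM in OE replicates 1 and 2, against 4.07 and 4.16 TPM in WT replicates 1 and 2. The groups were far apart and the replicates within each almost equal. Its mean was 5.56-fold higher in WT than in OE, with a log2 fold change of -1.56 (95% interval -2.50 to -0.61; limma, unadjusted p = 0.00419, Benjamini-Hochberg adjusted p = 0.398). Because LOX3 is scarce, the size depended on the pseudocount, with -2.33 at 0.1 and -0.67 at 5, while leaving out any 1 library gave -1.53 to -1.58. LOX4, its close relative, had 0.94 and 0.45 TPM in OE and 1.56 and 1.22 TPM in WT. These values did not overlap, but they lie near the filter of 1 TPM (log2 fold change -0.51, 95% interval -1.58 to 0.56; limma, Benjamini-Hochberg adjusted p = 1.0). The value for LOX4 was -0.97 with a pseudocount of 0.1, -0.17 with 5 and -0.30 without OE replicate 2. In both WT libraries LOX3 exceeded LOX4, whereas in OE the values of the pair interleaved.

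LOX2, the plastid enzyme that makes most of the jasmonate of wounded leaves, had 43.5 and 32.4 TPM in OE replicates 1 and 2, against 39.4 and 84.0 TPM in WT replicates 1 and 2. The groups overlapped, and the 2.13-fold gap between the WT replicates was wider than the 1.63-fold gap between the genotype means. Its log2 fold change was -0.61 (95% interval -1.57 to 0.36; limma, Benjamini-Hochberg adjusted p = 1.0). Leaving out WT replicate 2 brought it to -0.07, and leaving out WT replicate 1 to -1.14. LOX6, which is active near xylem and contributes to the first jasmonate after wounding, had 20.4 and 16.9 TPM in OE and 18.1 and 21.96 TPM in WT. Here the groups interleaved and replicates differed by 1.21-fold in each genotype. The interval of its log2 difference, -0.88 to 0.69, leaves room for a change of either sign (estimate -0.10; limma, Benjamini-Hochberg adjusted p = 1.0), and the estimate was above 0 without OE replicate 2 (0.034) and without WT replicate 2 (0.036).

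The lipoxygenases were also set against each other within each library, with LOX3 taken as the base after its values were seen. LOX6 exceeded LOX3 by 26.5-fold and 23.8-fold in the OE libraries, against 4.45-fold and 5.28-fold in the WT libraries. LOX2 exceeded LOX3 by 56.4-fold and 45.6-fold in OE, against 9.68-fold and 20.2-fold in WT. Neither ratio overlapped between genotypes, but this largely restates the gap in LOX3, which was below 1 TPM in both OE libraries. Each ratio gave the smallest p the design allows (exact two-sided permutation test, p = 0.333), which adds no evidence beyond LOX3 itself. Over the 12 sums, shares and ratios tested in this way the lowest Benjamini-Hochberg adjusted p was 0.667 (exact permutation tests). Such ratios do not depend on the scaling of a library. LOX3 made up 1.17% and 1.41% of the summed TPM of the 4 lipoxygenases in OE, against 6.45% and 3.74% in WT, whereas LOX2 held 66.2% and 64.2% in OE and 62.4% and 75.4% in WT. The sum itself overlapped, at 65.6 and 50.4 TPM in OE and 63.1 and 111 TPM in WT (exact two-sided permutation test, p = 0.667). Its difference, OE minus WT, was -29.2 TPM with all libraries and -5.13 TPM without WT replicate 2, against -53.3 TPM without WT replicate 1.

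**Figure D2:**
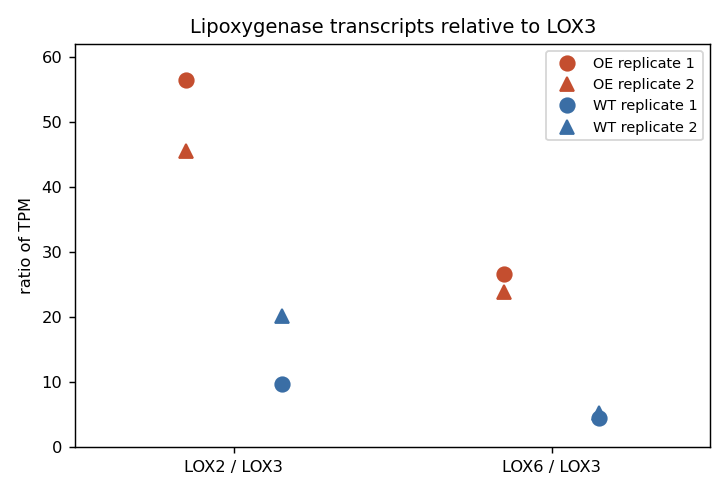
Ratio of LOX2 to LOX3 and of LOX6 to LOX3, each from the TPM of one library, on a linear axis from 0. Circles are replicate 1 and triangles replicate 2. Both OE libraries stand above both WT libraries for either ratio, with 23.8 or more in OE and 20.2 or less in WT. The gap largely restates that of LOX3, the shared denominator.

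AOS, a cytochrome P450 and the committed step of the route, encoded by a single gene, had 22.9 and 28.2 TPM in OE replicates 1 and 2, against 57.8 and 33.8 TPM in WT replicates 1 and 2. Both OE values were below both WT values, and WT replicate 1 was the high one, unlike for LOX2. The log2 fold change was -0.78 (95% interval -1.65 to 0.10; limma, unadjusted p = 0.0758, Benjamini-Hochberg adjusted p = 1.0). Leaving out WT replicate 1 gave -0.40, and leaving out WT replicate 2 gave -1.16.

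The cyclases follow in a family of 4. AOC1, AOC2 and AOC3 are neighbouring protein-coding genes in the RefSeq gene table of assembly TAIR10.1 and close in sequence, so reads could be divided between them and their separate values are uncertain. AOC1 had 68.9 and 35.3 TPM in OE replicates 1 and 2 and 29.3 and 79.0 TPM in WT replicates 1 and 2. AOC2 had 35.3 and 65.2 TPM in OE and 76.5 and 72.0 TPM in WT. The pair swapped places between the replicates of both genotypes. In OE AOC1 held 66.2% of their sum in replicate 1 and 35.1% in replicate 2, while the sum was 104 and 100.5 TPM. In WT the share of AOC1 was 27.7% and 52.3%, and the sum 106 and 151 TPM.

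Neither cyclase gave a difference beyond its replicate spread. For AOC1 the log2 fold change was 0.03 (95% interval -1.10 to 1.17), and it was -0.67 without WT replicate 1, -0.44 without OE replicate 1 and -0.028 with quantile normalization, but 0.73 without WT replicate 2 and 0.51 without OE replicate 2. For AOC2 it was -0.62 (95% interval -1.53 to 0.30), with -0.18 without OE replicate 1 and -1.05 without OE replicate 2 (limma, Benjamini-Hochberg adjusted p = 1.0 for each of the pair). Their sum averaged 102 ± 2.60 TPM in OE and 128 ± 32.0 TPM in WT (SD, n = 2 each; exact two-sided permutation test, p = 0.333), a difference of -26.1 TPM that was -3.44 TPM without WT replicate 2 and -48.7 TPM without WT replicate 1. With AOC3 and AOC4 added, the family summed to 145 and 141 TPM in OE, against 143 and 247 TPM in WT. So WT replicate 1 was at the level of OE, and WT replicate 2 alone stood higher. AOC4 was likewise highest in WT replicate 2, with 33.7 and 34.7 TPM in OE and 29.4 and 81.6 TPM in WT.

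**Figure D3:**
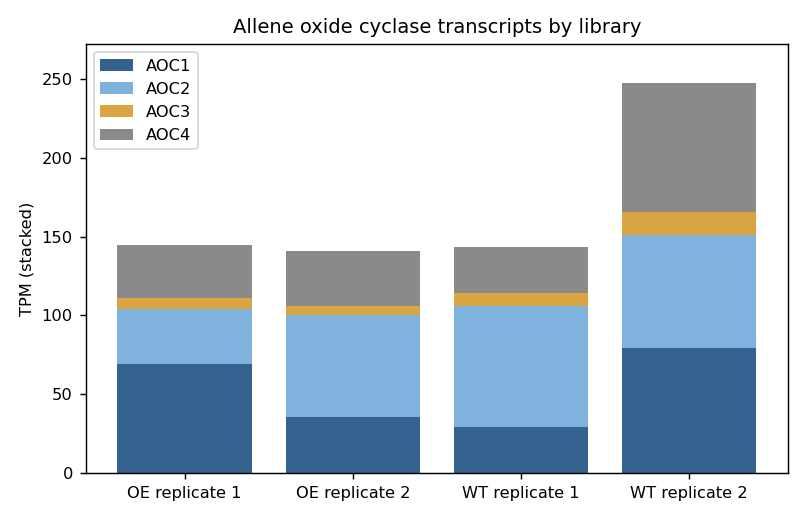
Stacked TPM of the 4 allene oxide cyclase genes in each library, OE libraries first. The stacks of both OE libraries and of WT replicate 1 reach 141 to 145 TPM and that of WT replicate 2 reaches 247 TPM, and the split between AOC1 and AOC2 differs between replicates of one genotype.

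Among the peroxisomal steps OPCL1 showed the wider gap. OPCL1, which activates the precursor for β-oxidation, had 13.95 and 7.80 TPM in OE replicates 1 and 2, against 17.7 and 25.4 TPM in WT replicates 1 and 2. Both OE libraries were the lower ones, with a mean of 10.9 ± 4.35 TPM in OE and 21.5 ± 5.48 TPM in WT (SD, n = 2 each). The log2 fold change was -0.95 (95% interval -1.83 to -0.07; limma, unadjusted p = 0.0364, Benjamini-Hochberg adjusted p = 0.855), and it ran between -0.57 without OE replicate 2 and -1.33 without OE replicate 1. OPR3, the reductase whose loss makes plants male sterile, had 21.1 and 14.5 TPM in OE and 21.4 and 28.9 TPM in WT. OE replicate 1 and WT replicate 1 were nearly equal, so the absence of overlap rests on the gap between those libraries (log2 fold change -0.48, 95% interval -1.31 to 0.35; limma, Benjamini-Hochberg adjusted p = 1.0). For OPR3 that value was -0.23 without OE replicate 2, -0.28 without WT replicate 2 and -0.74 without OE replicate 1.

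JAR1, the last enzyme, makes the active conjugate. Its transcript had 28.6 and 35.8 TPM in OE replicates 1 and 2, against 30.9 and 39.2 TPM in WT replicates 1 and 2. Genotypes overlapped, with replicates 1.25-fold apart in OE and 1.27-fold apart in WT. The log2 fold change was -0.12 (95% interval -0.93 to 0.69; limma, Benjamini-Hochberg adjusted p = 1.0) and turned to 0.039 without OE replicate 1 and to 0.047 without WT replicate 2. JAR1 and LOX6 were thus the members with small estimates and close replicates, and the intervals of both leave room for a change of either sign.

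**Figure D4:**
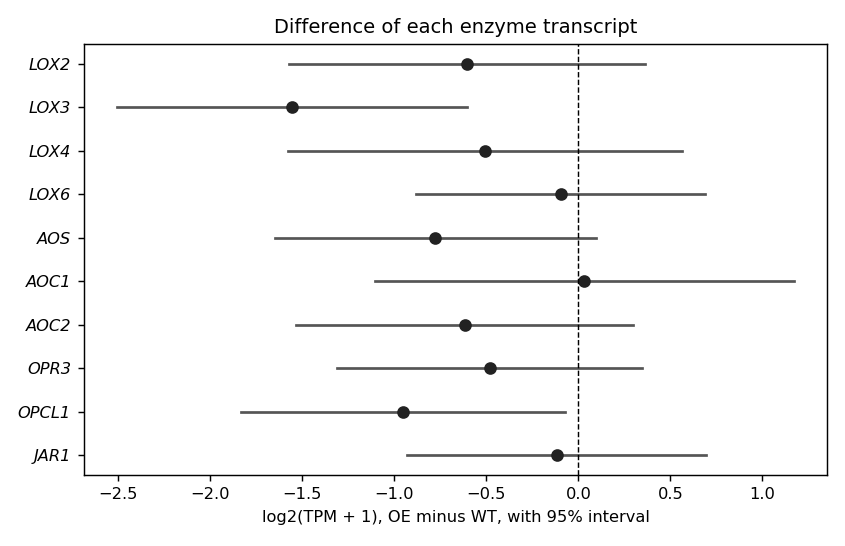
Difference of log2(TPM + 1), OE minus WT, for each enzyme transcript (points), with the 95% interval from limma (lines). The intervals of LOX3 and OPCL1 lie below 0 before adjustment over all features, and those of the other 8 include 0.

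The rest of the route had a median near 0. In the list of further biosynthesis genes, 12 of 14 were tested, 0 were called in either direction (limma) and 0 had an unadjusted p under 0.05, with a median log2 fold change of 0.04 and 6 negative values. DAD1 and DGL, lipases that can release the fatty acid substrate, were listed at 0 in all 4 libraries, and such values can be failed estimates. AOC3 had 6.88 and 5.47 TPM in OE, against 8.20 and 14.8 TPM in WT (log2 fold change -0.76). FAD3, a desaturase that makes linolenic acid in the endoplasmic reticulum, had higher values in OE, with 65.4 and 81.5 TPM in OE, against 55.4 and 53.9 TPM in WT (log2 fold change 0.41). MFP2, a multifunctional protein of β-oxidation, had 61.7 and 46.9 TPM in OE and 52.7 and 107 TPM in WT, with WT replicate 2 the high library. No test set this list against the 10 enzymes.

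Related oxylipin enzymes outside the route gave no call either, with 4 of 5 tested, 0 at an unadjusted p under 0.05 and a median of 0.00. LOX1, a lipoxygenase of the other oxygenation position, had 44.4 and 29.7 TPM in OE and 36.0 and 88.3 TPM in WT, so its libraries stood in the same order as those of LOX2. LOX5, of the same class as LOX1, had 2.47 and 4.42 TPM in OE and 3.01 and 2.41 TPM in WT. OPR2, a relative of OPR3 outside the peroxisome, had 71.8 and 21.98 TPM in OE, against 51.6 and 42.3 TPM in WT.

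Tested genes that inactivate or modify jasmonates had mostly positive differences. Of 10 listed, 8 were tested and 0 were called (limma; 1 at an unadjusted p under 0.05), with a median of 0.69. There were 6 positive values, beside 9658 positive values among 20010 tested features. Negative values were those of AT2G38240 (-1.03) and IAR3 (-0.32). Among genes too low to be tested, AT3G11180 had 0.06 and 0.12 TPM in OE, against 1.00 and 0.83 TPM in WT. JMT, also untested, had 0.52 and 0.03 TPM in OE and 2.32 and 0.23 TPM in WT. CYP94B3, which hydroxylates the isoleucine conjugate, had 2.15 and 9.58 TPM in OE, against 1.97 and 0.67 TPM in WT, where OE replicate 2 was far above the rest (log2 fold change 1.37, 95% interval 0.08 to 2.67; limma, Benjamini-Hochberg adjusted p = 0.883). ILL6, an amidohydrolase that cleaves jasmonate conjugates, had 6.84 and 14.4 TPM in OE, against 5.03 and 6.55 TPM in WT. ST2A, which sulfonates hydroxyjasmonate, had 44.1 and 53.2 TPM in OE, against 1.83 and 55.8 TPM in WT, so WT replicate 1 alone was low, the library that was also low in dark and starvation genes.

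Perception and regulator genes had 5 of 6 tested, 0 called (limma; 1 at an unadjusted p under 0.05) and a median of 0.04. MYC4, a transcription factor of jasmonate responses in leaves, had 11.3 and 11.9 TPM in OE, against 19.5 and 22.1 TPM in WT, without overlap (log2 fold change -0.79, 95% interval -1.56 to -0.02; limma, Benjamini-Hochberg adjusted p = 0.911). The receptor gene COI1 overlapped, with 21.3 and 18.6 TPM in OE and 18.7 and 25.3 TPM in WT, and the corepressor gene TPL had 57.1 and 54.1 TPM in OE and 35.6 and 46.8 TPM in WT. MYC2, a main activator of jasmonate responses, was listed at 0 in 2 of the 4 libraries and reached no more than 1.07 TPM, and a value of 0 in such a table can be a failed estimate.

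Of the JAZ repressor genes 11 of 12 were tested, 0 were called (limma; 0 at an unadjusted p under 0.05), with a median of -0.10. JAZ5 had 0.49 and 0.42 TPM in OE, against 0.85 and 2.87 TPM in WT, and JAZ4 had 6.86 and 4.40 TPM, against 8.99 and 8.29 TPM. JAZ11 overlapped, with 13.1 and 20.1 TPM in OE and 11.0 and 14.3 TPM in WT. All 5 output genes were tested and 0 were called (limma), with a median of -1.45. At an unadjusted p under 0.05 there were 3 (limma), all lower in OE, as were 2.61% of all tested features. Of these, VSP2 and PDF1.2 had less than 1 TPM in both OE libraries. They could pass the filter only with a higher WT mean, so their direction was partly fixed by it. CORI3, a cystine lyase induced by coronatine, had 0.91 and 3.48 TPM in OE, against 4.82 and 25.0 TPM in WT. The storage protein gene VSP2 had 0.08 and 0.98 TPM in OE, against 2.48 and 3.59 TPM in WT, and the defensin gene PDF1.2 was listed at 0 in both OE libraries, against 0.62 and 5.66 TPM in WT. VSP1, with 0.40 and 3.77 TPM in OE and 1.69 and 3.34 TPM in WT, overlapped between genotypes. TAT3 did too, with 0.30 and 0 TPM in OE and 0.02 and 8.38 TPM in WT. As for MYC2, the values of 0 for PDF1.2 and TAT3 can be failed estimates. The summed TPM of the 5 outputs was 1.69 and 8.23 in OE, against 9.63 and 45.9 in WT. CORI3 and TAT3 made up most of the sum in WT replicate 2. Apart from CORI3 in that library, no output exceeded 8.38 TPM.

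**Figure D5:**
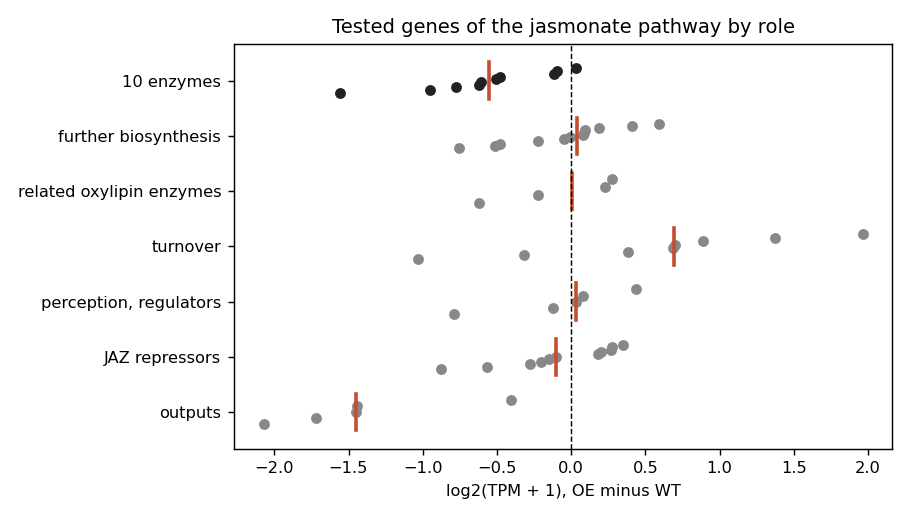
Difference of log2(TPM + 1), OE minus WT, of each tested gene of the jasmonate pathway, by role. Black points are the 10 enzymes, grey points genes of the other lists and red bars the medians, which lie at -0.56 for the 10 enzymes, 0.04 for further biosynthesis genes, 0.69 for turnover genes and -1.45 for outputs.

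The 6 clock genes were listed because time of harvest moves many leaf transcripts. Both OE libraries lay above both WT libraries for 3 of them and below for 1, beside 13.7% and 14.2% of all tested features. TOC1, an evening gene, had 28.6 and 36.7 TPM in OE, against 14.8 and 24.5 TPM in WT, and ELF4 had 30.8 and 34.8 TPM, against 20.7 and 21.4 TPM. PRR5 had 5.12 and 12.99 TPM in OE and 4.75 and 4.96 TPM in WT. CCA1, a morning gene, went the other way, with 118 and 61.8 TPM in OE and 125 and 134 TPM in WT. LHY overlapped between genotypes, with 236 and 64.2 TPM in OE and 178 and 180 TPM in WT. GI overlapped as well, with 3.34 and 12.6 TPM in OE and 7.34 and 9.98 TPM in WT. None of the 6 clock genes was called (limma; 0 at an unadjusted p under 0.05), and their part in the values of the enzymes was not tested. The dark and starvation genes gave 0 calls among 4 (limma; 2 at an unadjusted p under 0.05): DIN10 had 548 and 871 TPM in OE, against 64.4 and 219 TPM in WT, ASN1 had 49.1 and 398 TPM, against 0.38 and 43.0 TPM, and SEN1 had 972 and 1560 TPM, against 18.7 and 1531 TPM.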

How the data were processed

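TPM values per gene were deposited by the authors in 1 table with a column for each library. Per the submitters' processing notes the tools were fastp, HISAT and RSEM, with neither versions nor roles. Genome build and annotation: not given in the sources used here. Deposited columns of the authors' mean TPM per genotype entered no test. One WT column is numbered differently from its sample title, replicate 2, and was assigned by the sample's description.

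Features averaging 1 TPM or more were analysed as log2(TPM + 1), which understates the change of low genes. OE was compared with WT in limma 3.58.1 under R 4.3.3, with an intensity-dependent prior variance (trend), no further covariate, two-sided tests and Benjamini-Hochberg adjustment across all tested features. The prior contributed 8.73 degrees of freedom beside 2 residual ones. Summed values and ratios had exact permutation tests (scipy 1.17.1). The limma procedure was checked on simulated data, with libraries drawn independently and changes placed only in genes above a set level. LOX3 and LOX4 lie below that level, so the check does not cover them, nor shifts shared by a whole library. Depth is unknown, so no counting interval is given.

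Names came from the RefSeq gene table of assembly TAIR10.1, without coordinates or sequences. Of 88 further genes and markers, 1 was left out for another symbol and 4 were counted by locus only. The members and lists were chosen with earlier results of these data known. All members and ERF4 are named, and from each pathway list the called genes plus up to 3 with the smallest p. Exceptions chosen after their values were seen are AOC4, DAD1, DGL, MYC2, CRU3, OLEO1, EM1, AT2G38240, IAR3, AT3G11180, JMT, VSP1, TAT3, CCA1, LHY and GI. Alternatives were other pseudocounts (0.1 and 5), other filters (none, or 5 TPM on average), quantile or median-ratio scaling, dropping organelle features, no trend, a robust prior, a replicate block, and leaving out each library.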

Additional observations from a re-analysis of the deposited data

How the results depend on the processing

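None of the 10 enzymes was called under any of the 14 alternatives. Of 138 values of single enzymes, 131 kept their sign; LOX3 and LOX4 gave none with a mean of at least 5 TPM, which they do not reach. The log2 fold change of AOC1 turned to -0.028 with quantile normalization and ran from -0.67 to 0.73 over the fits without 1 library, as JAR1 did from -0.28 to 0.047 and LOX6 from -0.23 to 0.036. The LOX2 share of the summed TPM of the 10, OE minus WT, was -2.12 percentage points and ran from -6.25 to 2.02 without 1 library. The lowest adjusted p of LOX3 was 0.119 and its highest 0.946. Over all features 18 were called, against 63 with a mean of at least 5 TPM, 108 with a robust prior, 0 with no filter, with quantile normalization or with median-ratio scaling (limma; 1072, 1114 and 1129 at an unadjusted p under 0.05), and 0 to 147 without 1 library; the cause was not tested. The replicate numbers pair nothing in the labels, and same-numbered libraries deviated with a correlation of 0.03 across features. With the replicate block 338 features and 0 of the enzymes were called (limma), in a fit whose prior had infinite degrees of freedom. Leaving out WT replicate 1 moved the median over all features to -0.16, and leaving out WT replicate 2 moved it to 0.14. Depth is unknown, which limits most what LOX3 and LOX4 can show.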
